A study of Mus musculus with 12 samples.

Results

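The major urinary proteins are the products of the Mup genes, and 10 of these genes were followed in mouse liver, namely Mup1, Mup2, Mup3, Mup7, Mup9, Mup10, Mup11, Mup17, Mup20 and Mup21. They were chosen by name with earlier results of these data known, as were the gene lists used below. All 10 were found among the 35275 genes of the expression table, which also held 11 other Mup genes and 27 Mup pseudogenes. Livers of wild-type (WT) mice and of Pctp-/- mice were sequenced, with 3 mice in each of 4 groups and 12 libraries in all. Pctp-/- mice (KO) lack PC-TP, the phosphatidylcholine transfer protein, in the whole body and not only in the liver. Mice of each genotype were fed either chow or a methionine- and choline-deficient (MCD) diet, a diet used to induce steatosis and liver damage. The study used male mice, while the strain, age and feeding state of these animals are not given in the sources used here. Whole liver was used, so hepatocytes were sequenced together with the other cells of the organ, and in such samples fewer cells of a type and less RNA per cell cannot be told apart.

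Major urinary proteins are small lipocalins, secreted proteins with a barrel-shaped pocket that holds a hydrophobic ligand. Hepatocytes of adult mice secrete them into the blood, from which they pass into the urine, where they bind and slowly release volatile pheromones and take part in scent marking. Their genes form a cluster of recent duplicates, and male mice make more of most of them than females, under the control of pulsatile growth hormone together with androgen, thyroid hormone and glucocorticoid. Mup20 encodes darcin, a male pheromone protein that attracts females.

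All 10 members lie on chromosome 4 of GRCm38 between 60066469 and 62150863, on the minus strand. Their coding sequences fall into a close group and 3 more distant genes. In the close group of 7, which are Mup1, Mup2, Mup7, Mup9, Mup10, Mup11 and Mup17, any pair was 98.3 to 99.6% identical over the coding bases (median 99.1%, 21 pairs). Mup20 was 87.5 to 91.3% identical to the other members. Mup3 and Mup21 were closest to each other, at 95.4%, and Mup3 was 83.4% identical to its most distant member. A stretch of 60 coding bases in exon 3 is shown because 20 of its positions differed among the members, and capitals mark the bases that differ from Mup1. The stretch lies at chr4:60500453-60500512 in Mup1, chr4:60420501-60420560 in Mup9, chr4:62052650-62052709 in Mup20, chr4:62149368-62149427 in Mup21 and chr4:62085973-62086032 in Mup3, each on the minus strand, and is written 5′ to 3′.
Mup1: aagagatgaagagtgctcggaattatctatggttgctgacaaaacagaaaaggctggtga
Mup9: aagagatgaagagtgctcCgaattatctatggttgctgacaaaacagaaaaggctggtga
Mup20: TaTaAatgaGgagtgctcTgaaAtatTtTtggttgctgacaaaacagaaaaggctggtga
Mup21: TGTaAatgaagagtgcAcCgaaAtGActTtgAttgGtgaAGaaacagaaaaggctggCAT
Mup3: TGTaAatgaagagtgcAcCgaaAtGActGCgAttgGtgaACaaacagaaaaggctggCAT
Over this stretch Mup2 and Mup11 had the letters of Mup1, and Mup7, Mup10 and Mup17 had those of Mup9, with 1 difference from Mup1. Mup20 differed from Mup1 at 8 of these bases, Mup21 at 17 and Mup3 at 18.

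Reads of about 150 bases cannot always be placed within such a family. Of the 150-base stretches of a gene's annotated transcripts, all of those of Mup3 and Mup21 occurred in no other gene, as did 68.9% of those of Mup20, whose other stretches were shared with the pseudogene Mup-ps19. In the close group the share found in a single gene was 59.6% for Mup17, 47.5% for Mup1, 35.8% for Mup9, 35.2% for Mup11, 32.9% for Mup7, 29.7% for Mup2 and 27.7% for Mup10. The tool that counted the reads is not given in the sources used here, so the values of the 7 close members are uncertain as values of single genes, while those of Mup3 and Mup21 rest on sequence of their own. Only annotated transcripts were searched.

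Values are FPKM, the fragments mapped per unit of transcript length and of library size, as the authors deposited them. Uniquely mapped reads per library numbered 30486576 to 55179468. The share of reads that mapped uniquely was 77.6 to 79.4% in the chow libraries and 85.66 to 87.55% in the MCD libraries, the share that mapped to several places was 4.07 to 4.84% and 6.5 to 7.4%, and the given error rate of the reads was 0.03% and 0.01%. These measures did not overlap between the diets, so an effect of diet and an effect of sequencing cannot be told apart, while the genotypes were compared within a diet. Pctp was at 1.21 to 2.65 FPKM in WT and 0.330 to 0.566 FPKM in KO livers on chow, and at 3.61 to 7.90 and 0.156 to 0.329 FPKM on MCD, without overlap. The defining markers of hepatocytes present in the table (6 of 7 listed) were above 0 in every library and summed to 39671 to 43776 FPKM in WT and 42207 to 44541 FPKM in KO mice on chow, and to 52679 to 59645 and 67436 to 73789 FPKM on MCD. Of 3 genes marking salivary and lacrimal glands, which also make Mup proteins, Smr3a and Scgb2b20 were at 0 in every library and Amy1, which the liver also expresses, gave 113 to 181 FPKM. Of 3 kidney markers, Umod and Slc12a1 were at 0 throughout and the sum did not exceed 0.0135 FPKM.

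On chow, the members differed widely in abundance, from rank 6 among all genes for Mup3 to rank 8083 for Mup11 in WT mice. Their summed level was 8376 ± 1505 FPKM (SD, n = 3) in WT and 8054 ± 856 FPKM (SD, n = 3) in KO mice, which was 1.70 and 1.62% of the summed FPKM of all genes. Mup3 alone ranked 6th of all genes in both genotypes and made up 74.9 ± 3.23% (SD, n = 3) of the members' sum in WT mice. The order in WT mice on chow was Mup3, Mup21, Mup20, Mup9, Mup7, Mup1, Mup10, Mup17, Mup2 and Mup11. Neighbours in this order overlapped between mice from Mup9 to Mup10, and the others did not. Mup3 was at 6258 ± 993 FPKM, Mup21 at 1442 ± 496 FPKM and Mup20 at 298 ± 60.2 FPKM (SD, n = 3 each), and Mup11 was last at 3.13 ± 1.59 FPKM (SD, n = 3). The 7 close members together therefore gave a small part of the sum, and Mup3 and Mup21 most of it.

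**Figure D1:**
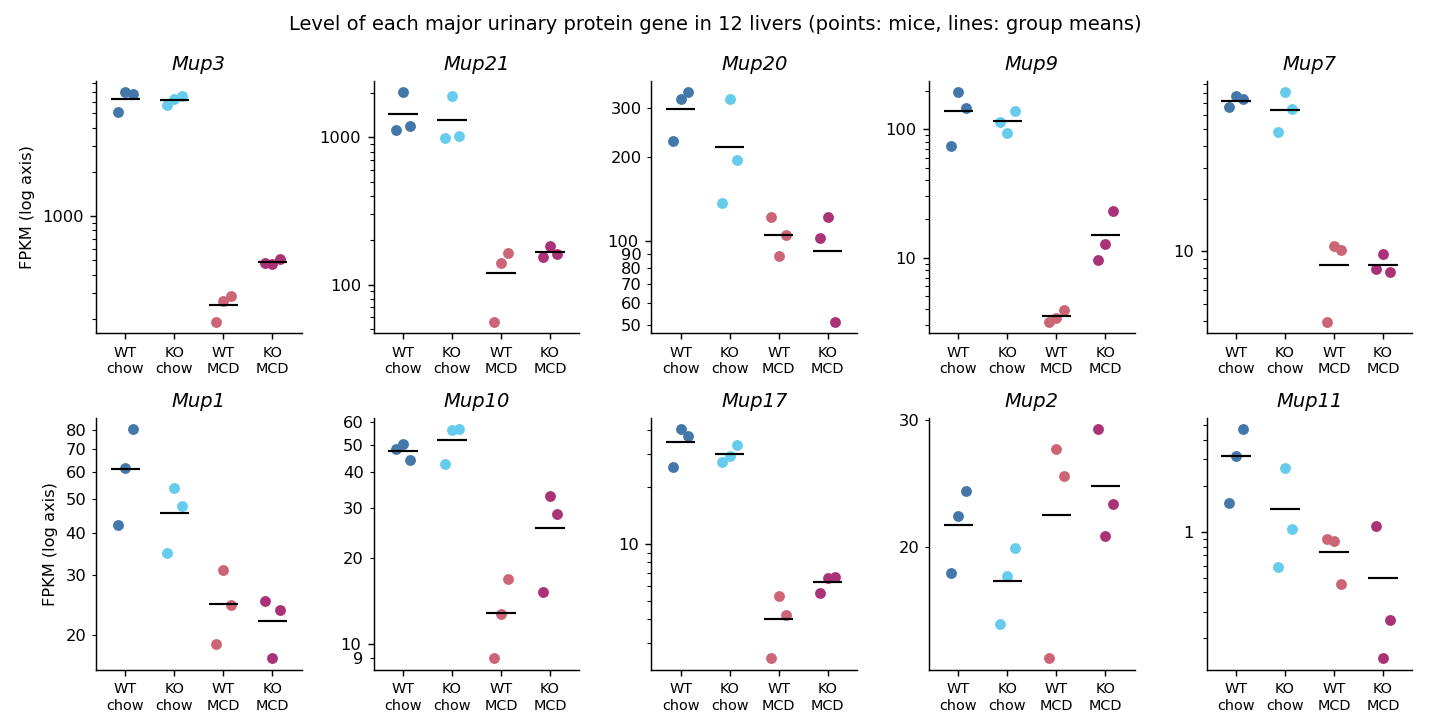
FPKM of each of the 10 members on a log axis, with 1 point per mouse, lines at the group means, WT and KO for Pctp-/- mice, and an axis of its own for each gene. Mup3, Mup21, Mup9, Mup7 and Mup17 stand far lower in the MCD livers than in the chow livers, and Mup2 stands at 13.98 to 29.2 FPKM in the MCD livers and 15.6 to 23.9 FPKM in the chow livers.

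On the MCD diet most of the members were lower than on chow, in both genotypes. The test was limma, fitted to log2(FPKM + 1) of the 12466 genes whose mean reached 0.5 FPKM, which included all 10 members, with Benjamini-Hochberg adjustment over all genes tested and a threshold of 0.05. In WT mice 9 of 10 members fell and 0 rose, where 22.5% of all tested genes fell and 34.5% rose. In KO mice 8 of 10 fell and 0 rose, where 24.4% of all tested genes fell and 26% rose. The median log2 fold change of the members was -2.34 in WT and -1.66 in KO mice, beside medians over all tested genes of 0.11 and 0.04. The chow and MCD values did not overlap for 9 of 10 members in each genotype, where 63.7% of all tested genes did not overlap in WT and 59.7% in KO mice. In KO mice the 9 include Mup2, whose values were higher on MCD, and Mup11 overlapped. The summed level of the members was 15.2-fold lower on MCD in WT mice, at 549 ± 114 FPKM (SD, n = 3), and 9.54-fold lower in KO mice, at 844 ± 25.7 FPKM (SD, n = 3). For each sum the two-sided exact permutation test gave p = 0.1, the smallest that 3 mice against 3 allow.

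**Figure D2:**
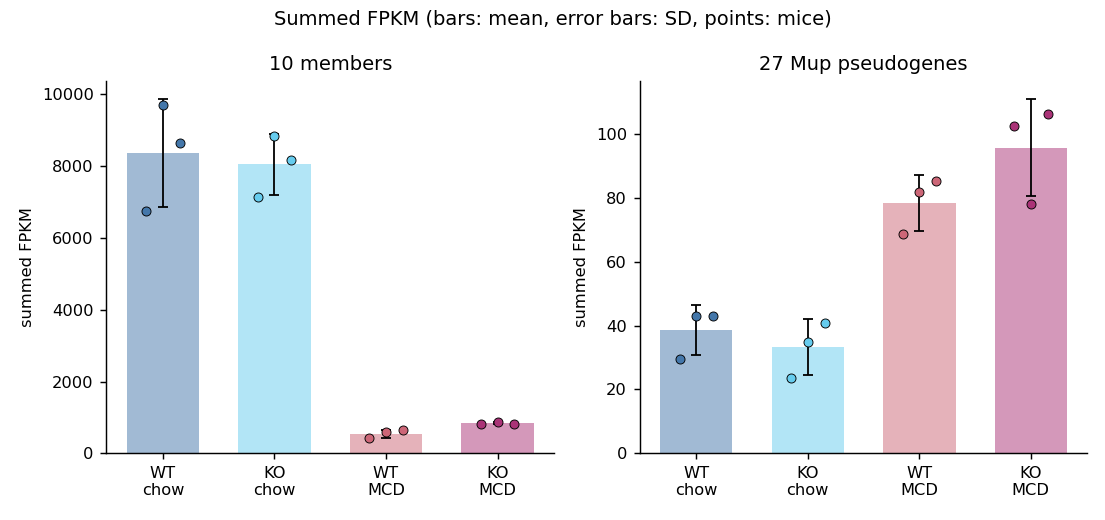
Summed FPKM of the 10 members (left) and of the 27 Mup pseudogenes (right) in each group, with bars at the mean, error bars of 1 SD and 1 point per mouse. The members' sum falls from 8376 to 549 FPKM in WT and from 8054 to 844 FPKM in KO mice, while the pseudogenes' sum goes from 38.5 to 78.4 FPKM and from 33.2 to 95.7 FPKM.

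Mup3, the most abundant member and one whose reads are its own, was at 5118, 6933 and 6722 FPKM in the 3 WT mice on chow and at 191, 264 and 286 FPKM in the 3 WT mice on MCD. In KO mice it was at 5730, 6280 and 6596 FPKM on chow and at 477, 469 and 507 FPKM on MCD. Every MCD liver was far below every chow liver. With the diet its log2 fold change was -4.66 (SE 0.15, adjusted p = 2.56e-09 from limma) in WT and -3.67 (SE 0.15, adjusted p = 1.61e-08 from limma) in KO mice. Its rank among all genes went from 6 on chow to 292 in WT and 115 in KO mice on MCD.

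Mup21, the closest relative of Mup3, was at 1125, 2013 and 1187 FPKM in WT mice on chow and at 56.0, 141 and 164 FPKM on MCD. In KO mice it was at 994, 1906 and 1022 FPKM on chow and at 154, 183 and 160 FPKM on MCD. One mouse of each genotype on chow stood well above the other two, and the diets still did not overlap. The log2 fold change of Mup21 was -3.66 in WT (SE 0.37, adjusted p = 7.49e-06 from limma) and -2.91 in KO mice (SE 0.37, adjusted p = 5.50e-05 from limma).

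Mup20, the darcin gene, had smaller fold changes. It was at 229, 324 and 341 FPKM in WT mice on chow and at 122, 88.6 and 105 FPKM on MCD. In KO mice it was at 137, 322 and 196 FPKM on chow and at 103, 122 and 51.6 FPKM on MCD. It fell in both genotypes, with a log2 fold change of -1.48 in WT (SE 0.33, adjusted p = 0.00231 from limma) and -1.23 in KO mice (SE 0.33, adjusted p = 0.00825 from limma). Mup20 made up 3.55 ± 0.332% of the members' sum in WT mice on chow and 20.2 ± 7.67% on MCD (SD, n = 3), without overlap.

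**Figure D3:**
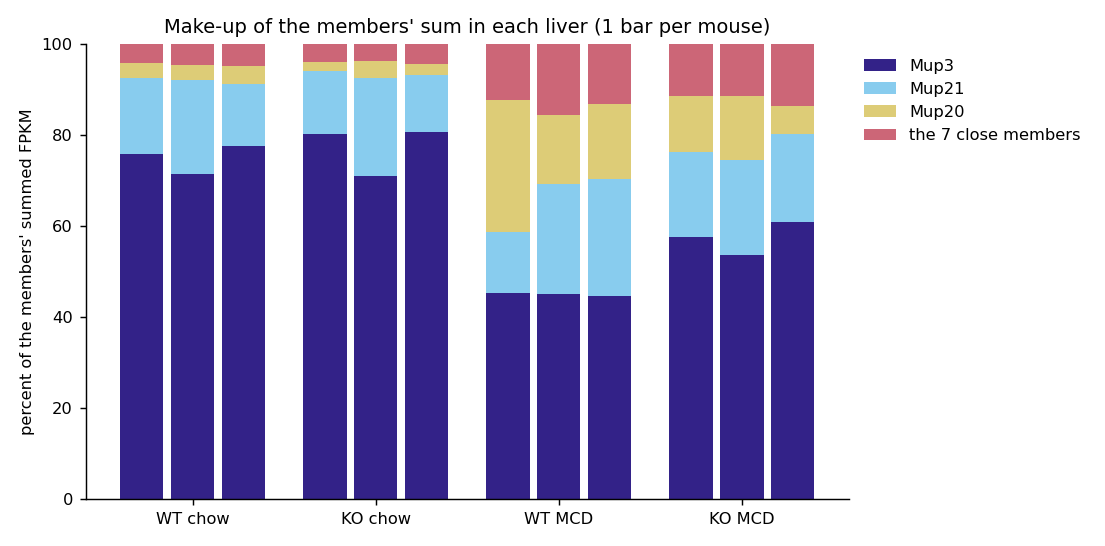
Percent of the members' summed FPKM taken by Mup3, Mup21, Mup20 and the 7 close members together, with 1 bar per mouse in the 4 groups. Mup3 takes 71.0 to 80.7% in the chow livers, 44.7 to 45.3% in WT and 53.6 to 61.0% in KO livers on MCD.

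Among the 7 close members, the difference between the diets varied widely, with Mup9 and Mup2 at the ends. Mup9 was at 73.9, 194 and 147 FPKM in WT mice on chow and at 3.18, 3.40 and 3.93 FPKM on MCD. The WT livers on MCD were all low and close to each other. In KO mice Mup9 was at 114, 93.0 and 139 FPKM on chow and at 9.66, 12.7 and 22.9 FPKM on MCD. The log2 fold change was -4.85 in WT (SE 0.33, adjusted p = 4.11e-07 from limma), 39.5-fold lower in the means, and -2.92 in KO mice (SE 0.33, adjusted p = 2.38e-05 from limma), 7.63-fold lower in the means. Mup2, whose coding sequence is 99.6% identical to that of Mup9, was at 18.4, 22.1 and 23.9 FPKM in WT mice on chow and at 13.98, 27.4 and 25.1 FPKM on MCD. In KO mice Mup2 was at 15.6, 18.2 and 19.9 FPKM on chow and at 29.2, 20.7 and 22.9 FPKM on MCD. WT values overlapped between the diets, and KO values did not. The log2 fold change was -0.003 in WT (SE 0.21, 95% interval -0.47 to 0.46, adjusted p = 0.992 from limma) and 0.41 in KO mice (SE 0.21, 95% interval -0.05 to 0.88, adjusted p = 0.127 from limma). Without the first WT mouse on MCD the KO difference of Mup2 had an adjusted p of 0.0300.

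The other close members lay between these. Mup7 was at 66.7 to 76.8 FPKM in WT mice on chow and 3.96 to 10.8 FPKM on MCD, and at 48.2 to 80.9 and 7.65 to 9.59 FPKM in KO mice, with log2 fold changes of -3.08 (SE 0.28) and -2.78 (SE 0.28). Mup17 went from 25.6 to 40.4 FPKM on chow to 2.49 to 5.30 FPKM on MCD in WT mice and from 27.1 to 33.5 FPKM to 5.51 to 6.68 FPKM in KO mice, a log2 fold change of -2.84 (SE 0.21) and -2.09 (SE 0.21). The log2 fold change of Mup10 was -1.85 (SE 0.26) in WT and -1.05 (SE 0.26) in KO mice, and that of Mup1 was -1.25 (SE 0.25) and -1.01 (SE 0.25). The adjusted p of these 4 genes from limma was at most 9.90e-04 in WT and 0.00495 in KO mice. Mup11, the least abundant member, was at 1.54, 3.13 and 4.71 FPKM in WT mice on chow and at 0.903, 0.871 and 0.452 FPKM on MCD, with a log2 fold change of -1.18 (SE 0.34, adjusted p = 0.0107 from limma). In KO mice it was at 0.588, 2.62 and 1.04 FPKM on chow and at 1.09, 0.148 and 0.264 FPKM on MCD, with a log2 fold change of -0.65 (SE 0.34, adjusted p = 0.129 from limma). Without the third WT mouse on chow the WT fall of Mup11 had an adjusted p of 0.0503. Single mice stood low within 3 of the 4 groups. The first WT mouse on chow and the first KO mouse on chow each held the lowest value of their group for 9 of the 10 members, and the first WT mouse on MCD did so for 8. Each of these 3 livers also held the highest sum of macrophage markers of its group, while their hepatocyte and stellate cell sums went in different directions, as given with the marker genes. Each also had the lowest summed FPKM over all genes of its group, at 463615, 488344 and 511151. The first WT and first KO library on chow held the most uniquely mapped reads of their groups (55179468 and 44898734), and the first WT library on MCD did not. The part of these traits in the low Mup values was not tested.

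**Figure D4:**
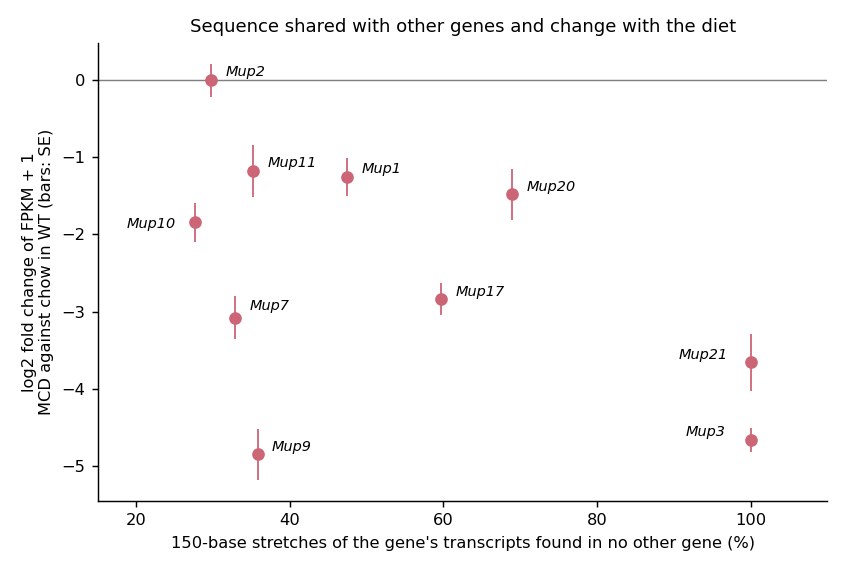
Log2 fold change of FPKM + 1 with the MCD diet in WT mice for the 10 members (vertical axis, bars of 1 SE) against the percent of 150-base stretches of the gene's transcripts found in no other gene (horizontal axis). Mup3 and Mup21, at 100%, stand at -4.66 and -3.66, and the close members between 27.7 and 59.6% spread from -0.003 for Mup2 to -4.85 for Mup9.

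The promoters of Mup2, Mup9 and Mup3 are shown because Mup9 had the largest fold change in WT mice, Mup2 did not pass the test in either genotype, and Mup3 is the most abundant member. They are the 250 bases before the RefSeq start site (GRCm38.p6, minus strand, 5′ to 3′), at chr4:60139857-60140106 for Mup2, chr4:60421953-60422202 for Mup9 and chr4:62087318-62087567 for Mup3, with the letters TATATAA in capitals.
Mup2: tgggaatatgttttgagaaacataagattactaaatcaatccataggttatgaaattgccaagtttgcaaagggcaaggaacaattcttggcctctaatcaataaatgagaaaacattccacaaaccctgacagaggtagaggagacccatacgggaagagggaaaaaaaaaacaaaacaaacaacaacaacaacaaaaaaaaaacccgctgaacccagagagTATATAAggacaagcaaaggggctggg
Mup9: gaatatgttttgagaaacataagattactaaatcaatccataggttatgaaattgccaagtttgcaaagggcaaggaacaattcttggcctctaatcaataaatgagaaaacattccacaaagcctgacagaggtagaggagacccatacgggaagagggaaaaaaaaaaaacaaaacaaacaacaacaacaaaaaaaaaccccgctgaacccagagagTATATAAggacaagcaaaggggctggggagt
Mup3: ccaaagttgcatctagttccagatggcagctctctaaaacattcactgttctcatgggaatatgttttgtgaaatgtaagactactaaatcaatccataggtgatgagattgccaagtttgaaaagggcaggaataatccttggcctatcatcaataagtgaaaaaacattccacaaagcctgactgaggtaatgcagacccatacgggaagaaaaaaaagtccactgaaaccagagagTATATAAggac
RefSeq promoter windows, with 50 bases after the start site added, were matched for 8 of 10 members, and not for Mup1 and Mup20. Over the part of the windows that aligned, Mup2 and Mup9 were 97.0% identical in 297 bases, Mup3 and Mup21 92.9% and Mup2 and Mup3 76.8%. TATATAA, searched on both strands and chosen after these sequences were seen, was in 7 of the 8 windows and in 3.24% of 32851 mouse promoters, and in Mup10 it overlapped its own match on the other strand. Counted from the start site, it began at -31 to -25 in Mup2, Mup9, Mup10 and Mup17, -11 in Mup3, -8 in Mup21 and -2 in Mup11. The windows therefore do not cover the same stretch in every member. That of Mup7 ended before the place of these letters in the others, and the bases beyond it were not searched. The common TATA box letters TATAAA were in 0 of 8 and 13.6% of all promoters. The STAT5 element TTCNNNGAA was in 0 of 8 and 8.30%, the C/EBP element TTGCNNCAA in 0 of 8 and 2.08%, and the glucocorticoid receptor element core TGTTCT in Mup3 and Mup21 and in 19.0%, each searched on both strands.

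On chow, the knockout was compared with WT to ask whether PC-TP bears on the transcriptome under a normal diet. No member passed the test, with 0 of 10 called by limma, where 0.136% of all tested genes were called in either direction. At an unadjusted p under 0.05 was 1 of 10, Mup11, where 870 of the 12466 tested genes were. The values of the genotypes overlapped for all 10 members, where 10.6% of all tested genes did not overlap. The log2 fold change of Mup3 was -0.002 (SE 0.15, 95% interval -0.34 to 0.33, adjusted p = 1 from limma), with KO and WT means of 6202 and 6258 FPKM. The difference was 0.11 for Mup10 and between -0.78 (Mup11, 95% interval -1.52 to -0.04) and -0.002 (Mup3) for the other 9, and the median of all 10 was -0.18 beside 0.01 over all tested genes. The summed level differed by less than the spread between mice (exact permutation test, two-sided, p = 0.8, n = 3 against 3).

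On MCD, Mup3 and Mup9 were higher in KO than in WT mice. These were 2 of 10 members, where 0.297% of all tested genes were called higher and 0.521% lower, and 0 members were called lower. Mup3 was at 469 to 507 FPKM in KO and 191 to 286 FPKM in WT mice, 1.96-fold higher in the means, with a log2 fold change of 0.99 (SE 0.15, adjusted p = 0.0136 from limma). Mup9 was at 9.66 to 22.9 FPKM in KO and 3.18 to 3.93 FPKM in WT mice, 4.31-fold higher in the means, with a log2 fold change of 1.76 (SE 0.33, adjusted p = 0.0317 from limma). Both calls were lost without the second KO mouse on MCD (adjusted p = 0.0644 for Mup3 and 0.107 for Mup9) and without the third (0.0709 and 0.128). Both calls were also lost when only the 6 MCD libraries were fitted (0.0639 for both) and with no filter on low values (0.0509 and 0.0773). That of Mup9 was also lost with a pseudocount of 5 (0.0852) and without the third WT mouse on chow (0.0509), the first WT mouse on MCD (0.103) or the second (0.116).

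For 3 members, Mup3, Mup9 and Mup17, the genotypes did not overlap on MCD, where 26.6% of all tested genes did not. Mup17 was at 5.51, 6.61 and 6.68 FPKM in KO and 2.49, 5.30 and 4.19 FPKM in WT mice (log2 fold change 0.58, SE 0.21, adjusted p = 0.196 from limma). Mup10 was at 15.2, 33.0 and 28.6 FPKM in KO and 8.94, 12.8 and 16.9 FPKM in WT mice (log2 fold change 0.91, SE 0.26, adjusted p = 0.118 from limma, and 0.0272 without the first KO mouse on MCD). The other 6 members had log2 fold changes of -0.27 to 0.59 and adjusted p values of at least 0.456. The median over the members was 0.37, beside -0.09 over all tested genes. The members' sum was 1.54-fold higher in KO mice without overlap (exact permutation test, two-sided, p = 0.1, the smallest possible). The summed hepatocyte markers were also higher in KO mice on MCD without overlap, at 67436 to 73789 FPKM against 52679 to 59645 FPKM in WT mice. Most of that sum was Alb, with means of 57218 FPKM in KO and 43899 FPKM in WT mice. Means were also higher in KO mice for Ttr (5369 and 4815 FPKM) and Apob (533 and 503 FPKM). They were not for Apoa1 (6113 and 6215 FPKM) and Hnf4a (106 and 110 FPKM). The part of these markers in the higher Mup values was not tested. Mup3 made up 57.4 ± 3.67% of the members' sum in KO and 45.0 ± 0.327% in WT mice (SD, n = 3). Without Mup3 and Mup21 the sum of the other 8 members was 194 ± 28.9 FPKM in KO and 182 ± 7.87 FPKM in WT mice (SD, n = 3).

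Whether the diet acted differently in the 2 genotypes was tested directly. None of the 10 members was called by limma, where 0.0963% of all tested genes were called in either direction. At an unadjusted p under 0.05 were 4 members, where 1884 of the 12466 tested genes were. The difference of the diet effects, KO minus WT, was 0.99 for Mup3 (SE 0.22, adjusted p = 0.0940 from limma), 1.93 for Mup9 (SE 0.47, adjusted p = 0.120), 0.75 for Mup17 (SE 0.29, adjusted p = 0.249) and 0.80 for Mup10 (SE 0.36, adjusted p = 0.327). It was above 0 for all 10 members, with a median of 0.64 beside -0.10 over all tested genes. Without the first WT mouse on chow, Mup3 and Mup9 passed the threshold, with adjusted p of 0.0471 and 0.0457, and Mup3 also passed it with quantile normalization (0.0337).

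**Figure D5:**
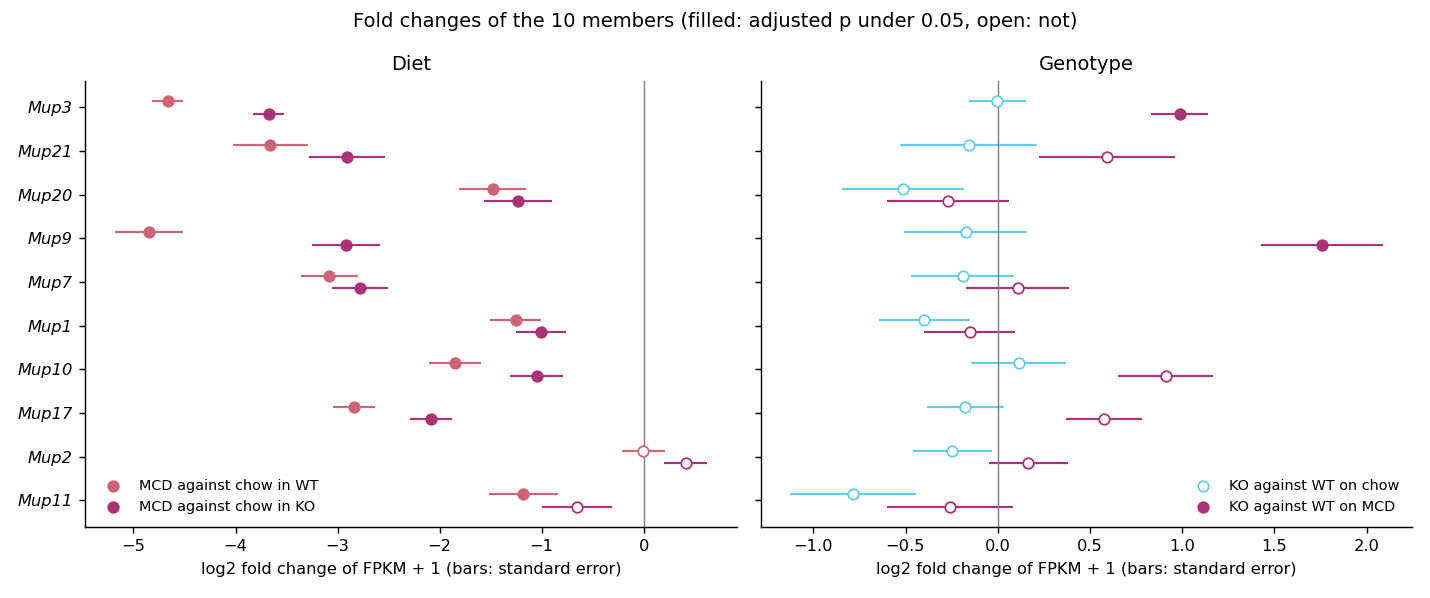
Log2 fold change of FPKM + 1 for the 10 members with the diet in each genotype (left) and with the knockout on each diet (right), with bars of 1 SE, filled points for an adjusted p under 0.05 and open points for the others. With the diet, 9 points in WT and 8 in KO mice are filled and left of 0, and with the knockout only Mup3 (0.99) and Mup9 (1.76) on MCD are filled.

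The other 11 Mup genes were of low abundance except Mup12, which was at 42.9 ± 19.5 FPKM in WT mice on chow (SD, n = 3). Mup4, Mup5, Mup6, Mup13, Mup15 and Mup16 were below the minimum for testing, and Mup5 was at 0 in every library. Of the 5 tested, Mup12, Mup18 and Mup19 fell with the diet in both genotypes, and Mup8 and Mup14 did not pass the test in either. Of all tested genes 22.5% fell in WT and 24.4% in KO mice. For Mup12 the log2 fold change was -1.48 in WT (SE 0.30, adjusted p = 0.00113 from limma) and -1.34 in KO mice (SE 0.30, adjusted p = 0.00267 from limma). None of the 5 was called between the genotypes on either diet, with 1 at an unadjusted p under 0.05, Mup14 on chow. On chow 870 of the 12466 tested genes were at an unadjusted p under 0.05. Of the transcript sequence of Mup12, 24.1% of 150-base stretches occurred in no other gene, and 73.9% were shared with Mup1.

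Among the Mup pseudogenes, 4 of 8 tested rose with the diet in both genotypes, where 34.5% of all tested genes rose in WT and 26% in KO mice. The summed level of all 27 was 38.5 ± 7.84 FPKM on chow and 78.4 ± 8.77 FPKM on MCD in WT mice, and 33.2 ± 8.72 and 95.7 ± 15.3 FPKM in KO mice (SD, n = 3), 2.04-fold and 2.88-fold higher on MCD without overlap (exact permutation test, two-sided, p = 0.1 each, the smallest possible). Of the other 4 tested, 1 fell in WT mice. The largest log2 rise was that of Mup-ps2, which was chosen for mention with its values known, from 1.21 ± 0.160 to 17.5 ± 4.85 FPKM in WT mice (SD, n = 3), a log2 fold change of 3.04 (SE 0.20, adjusted p = 3.61e-07 from limma). Mup-ps10, also chosen with its values known, had the highest mean of the pseudogenes on MCD in both genotypes. It went from 3.19 ± 0.750 to 31.6 ± 6.60 FPKM in WT and from 2.76 ± 1.06 to 36.2 ± 7.24 FPKM in KO mice (SD, n = 3). The levels were far below those of Mup3, and many pseudogenes share sequence with each other and with the close members. Of the 150-base stretches, 38.3% of those of Mup-ps2 and 98.0% of those of Mup-ps10 occurred in no other gene. The share of reads that mapped to several places was also higher in the MCD libraries, as given above, and its part in these values was not tested.

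Growth hormone signals through its receptor Ghr, the kinase Jak2 and the transcription factors Stat5a and Stat5b, with Igf1 as a main target, and liver factors such as Hnf4a and Cebpa act on the same promoters. Of 20 tested genes in this list of 21, 13 fell and 0 rose with the diet in WT mice, where 22.5% of all tested genes fell and 34.5% rose. In KO mice 11 fell and 1 rose, where 24.4% of all tested genes fell and 26% rose. The medians of the list were -0.92 and -0.55. The 3 largest falls in WT mice were those of Onecut1 (-2.78, SE 0.68), Cebpb (-2.40, SE 0.35) and Cebpa (-2.04, SE 0.19), with adjusted p of at most 0.00410 from limma. In KO mice they were those of Cebpb (-3.25, SE 0.35), Bcl6 (-2.13, SE 0.23) and Cebpa (-1.48, SE 0.19), with adjusted p of at most 5.54e-05, and the rise was that of the glucocorticoid receptor gene Nr3c1 (0.34, SE 0.13, adjusted p = 0.0425). On chow 1 of the 20 genes was called higher in KO mice, where 0.0562% of all tested genes were. It was Bcl6, a repressor that opposes Stat5 at many of its target genes (log2 fold change 1.87, SE 0.23, adjusted p = 0.00536 from limma). On MCD 1 of the 20 was called higher, where 0.297% of all tested genes were. It was Ghr, at 96.1 to 106 FPKM in KO and 74.0 to 77.5 FPKM in WT mice (log2 fold change 0.42, SE 0.08, adjusted p = 0.0334 from limma).

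Genes that male livers express above female livers, as most Mup genes are, were lower on MCD. All 15 of the list were called lower in WT mice, where 22.5% of all tested genes were, and 14 in KO mice, where 24.4% were. The medians of the list were -2.19 and -2.10, and 0 of its genes were called between the genotypes on either diet. Susd4 (-3.94, SE 0.22), the fatty acid elongase gene Elovl3 (-3.64, SE 0.33) and the complement gene C6 (-3.53, SE 0.12) fell most in WT mice, and Elovl3 (-4.48, SE 0.33), Susd4 (-3.63, SE 0.22) and C6 (-3.07, SE 0.12) in KO mice, with adjusted p of at most 2.94e-06 from limma. Genes that female livers express above male livers rose, with 13 of 13 tested genes (17 listed) called higher in each genotype. Of all tested genes 34.5% were called higher in WT and 26% in KO mice. The medians of the list were 3.74 in WT and 5.06 in KO mice. Sult1e1, the estrogen sulfotransferase gene (7.41, SE 0.15), Cyp3a44 (6.24, SE 0.34) and Cyp2b9 (5.87, SE 0.51) rose most in WT mice, and Sult1e1 (7.15, SE 0.15) and Cyp2a4 (6.78, SE 0.36) were among the 3 largest rises in KO mice, with adjusted p of at most 2.54e-06 from limma. In the comparison of the genotypes on MCD, 4 of these 13 were higher in KO mice, where 0.297% of all tested genes were. They were led by Sult3a1 (3.01, SE 0.49), Cyp3a41a (2.51, SE 0.22) and Sult3a2 (2.25, SE 0.43), with adjusted p of at most 0.0329 from limma. On chow 0 of 13 were called by limma, and 2 were at an unadjusted p under 0.05, where 870 of the 12466 tested genes were. Both lists were chosen with earlier results of these data known, so their counts beside those of all genes are a description.

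Other lipocalins of liver and plasma moved in both directions. Of 9 tested (10 listed), 3 rose and 2 fell in WT mice and 4 rose and 2 fell in KO mice, with medians of 0.14 and -0.01. Of all tested genes 34.5% rose and 22.5% fell in WT mice, and 26% rose and 24.4% fell in KO mice. Among these lipocalins the largest changes were as follows. Lcn2, lipocalin 2, rose most (5.66, SE 0.44 in WT and 4.81, SE 0.44 in KO mice), followed by the orosomucoid gene Orm2 (3.03, SE 0.35 and 2.13, SE 0.35), and C8g (-0.61, SE 0.16 and -0.64, SE 0.16) and Ambp (-0.55, SE 0.10 and -0.51, SE 0.10) fell, with adjusted p of at most 0.00538 from limma. Other abundant secreted proteins of hepatocytes were split too, with 4 of 14 tested genes (15 listed) higher and 4 lower on MCD in each genotype and medians of 0.04 and 0.14. In WT mice the counts of both lists were near the shares over all tested genes. Hpx, which encodes hemopexin, rose (1.23, SE 0.11 in WT and 1.14, SE 0.11 in KO mice), as did Alb, the albumin gene (0.66, SE 0.12 and 1.02, SE 0.12), while Serpina3k (-2.15, SE 0.16 and -1.53, SE 0.16) and Serpina1a (-1.36, SE 0.14 and -0.83, SE 0.14) fell, with adjusted p of at most 5.02e-04 from limma. For both lists 0 genes were called between the genotypes on either diet by limma. At an unadjusted p under 0.05 were 3, all in the second list on MCD, where 2026 of the 12466 tested genes were.

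Among markers of other liver cells, the macrophage sums were higher and the cholangiocyte sums lower on MCD in both genotypes, without overlap. The stellate sums overlapped between the diets in both genotypes, and the endothelial sums in KO mice only. No test was run on these sums. The 6 macrophage markers, all above 0 in every library, summed to 44.6 to 113 FPKM on chow, 209 to 460 FPKM in WT and 230 to 308 FPKM in KO mice on MCD. The 6 stellate cell markers summed to 9.14 to 17.7 FPKM on chow, 17.0 to 42.0 FPKM in WT and 15.6 to 19.9 FPKM in KO mice on MCD, and the 4 endothelial markers to 35.0 to 52.3 FPKM, 46.6 to 57.7 FPKM and 42.4 to 46.8 FPKM. The 4 cholangiocyte markers summed to 3.29 to 8.66 FPKM on chow and 2.54 to 3.73 FPKM on MCD. In the first WT mouse on MCD, the one with the lowest values of 8 members, macrophage markers summed to 460 FPKM and stellate cell markers to 42.0 FPKM. Its endothelial sum, 50.2 FPKM, was not the highest of its group. In the first WT and the first KO mouse on chow, each lowest for 9 members, macrophage markers summed to 84.6 and 113 FPKM, the highest of their groups. Endothelial markers summed to 41.6 and 52.3 FPKM, again the highest. The hepatocyte sum was the lowest of its group in that WT mouse (39671 FPKM) and the highest in that KO mouse (44541 FPKM). The stellate and cholangiocyte sums were the highest in that WT mouse (17.7 and 5.72 FPKM) and the lowest in that KO mouse (12.6 and 3.29 FPKM). The part of other cells in the fall of the Mup genes was not tested. The summed level of the hepatocyte markers was higher on MCD than on chow in both genotypes, and most of it was Alb. In WT mice the mean of Alb went from 27788 to 43899 FPKM and that of Apob from 349 to 503 FPKM. Apoa1 went from 8458 to 6215 FPKM, Hnf4a from 239 to 110 FPKM and Ttr from 4904 to 4815 FPKM.

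Outside the family, the 5 tested genes whose log2 levels followed the mean of the members most closely over the 12 libraries were Vtn (Pearson r = 0.991), Cyp4f13 (0.990), Proc (0.989), Prodh2 (0.988) and Scnn1a (0.987). All 5 were lower on MCD, and the libraries of a diet share both the diet and the sequencing, so these correlations are a description. After the mean of each group had been subtracted, the closest were Nat9 (r = 0.954), Gm8941 (0.953), Proc (0.939), Higd2a (0.917) and Hsd17b10 (0.916), again over 12 libraries. Proc, which encodes the anticoagulant protein C, was in both sets. Against the mean of the other 9 members, r over the 12 libraries was 0.992 for Mup17, 0.983 for Mup3 and Mup21 and 0.981 for Mup7, and it was lowest for Mup11 at 0.696 and Mup2 at -0.190. After the group means had been subtracted it was 0.885 for Mup3, 0.696 for Mup2 and 0.203 for Mup20.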

How the data were processed

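Liver RNA-seq of 12 mice was analysed. FPKM per gene, and per library the read counts and the mapping and quality measures in percent, were used as deposited by the authors. The build is mm10 per the submitters' processing notes, and the aligner, the counting tool and the annotation are not given in the sources used here. FPKM are not counts and were not rescaled. Symbols, exons and transcripts came from GENCODE M21 (GRCm38), which held 34490 of 35275 identifiers, and promoters from RefSeq (GRCm38.p6). All 10 members had a mean of at least 0.5 FPKM.

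limma 3.58.1 in R 4.3.3 was fitted to log2(FPKM + 1) of 12466 genes with 1 mean per group, a trend of the variance on the mean and adjustment after Benjamini and Hochberg, so fold changes of low genes are understated. KO was compared with WT on each diet and MCD with chow in either genotype, and the difference between the diet effects was tested. On simulated data for the knockout on MCD (12466 genes), the fit called 86.5% of 200 genes given a log2 change of 1, and 5.46% of its calls were wrong. Single sums were compared by exact permutation of the mice. Each library came from a different mouse, and replicate numbers shared between groups were taken as names, since the labels give no pairing.

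The members and the lists (hormone receptors and signalling, male-typical, female-typical, other lipocalins, abundant secreted proteins and cell type markers) were chosen with earlier results of these data known. Named are all members, every other Mup gene, at most 3 list genes each way per contrast with the largest change among those called, and the 5 genes most like the members' mean. A single gene of the female-typical list is counted but not reported by name here. Identity between coding sequences was computed with Biopython 1.88 after global alignment, and shared 100-base and 150-base stretches were searched in 141767 transcripts. Alternatives were the pseudocount, the filter, the scaling, the libraries fitted, a replicate block, the options of limma, each library left out and, for the summed level, all Mup genes and pseudogenes.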

Additional observations from a re-analysis of the deposited data

Results flagged for a closer look

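No member was called for a difference of the diet effects between the genotypes. Among the listed genes, 2 were called. For Bcl6 the difference, KO minus WT, was -2.16 on the log2 scale (SE 0.33, adjusted p = 0.0399 from limma), with 3.15 to 5.54 FPKM in WT and 13.7 to 24.4 FPKM in KO mice on chow, and 3.49 to 5.90 and 3.06 to 4.43 FPKM on MCD. For Cyp3a41a it was 2.51 (SE 0.31, adjusted p = 0.0144 from limma), and this gene was listed at 0 in all 6 chow libraries and at 2.13 to 4.97 FPKM in WT and 19.9 to 33.4 FPKM in KO mice on MCD. No formal test for a single outlying liver was run in groups of 3 mice.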

How the results depend on the processing

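The number of members called with the diet was 8 or 9 in WT and in KO mice under every alternative, and 0 were called between the genotypes on chow. On MCD, 2 members were called between the genotypes, and 1 (Mup3) with a pseudocount of 5, 0 with no filter on low values and 0 with only the libraries compared, while leaving out single libraries gave 0 to 3. Adjusted p for Mup3 in that comparison ran from 0.000734 to 0.0709 (20 of 24 alternatives past the threshold) and for Mup9 from 0.0143 to 0.128 (16 of 24). For the difference of the diet effects 0 were called, and 1 with quantile normalization, 1 with the replicate block (Mup3 in both, adjusted p = 0.0337 and 0.0380 from limma) and 0 to 2 with single libraries left out. The labels give no pairing of mice by replicate number, and the values did not settle whether there was one. Of 18 correlations of same-numbered deviations, from -0.0972 to 0.225, 8 were over 0.1 and 10 were the best for their number. The replicate block moved the count of all called genes from 17 to 32 for the knockout on chow and from 12 to 59 for the difference of the diet effects. Small log2 differences changed sign. For the knockout on chow Mup3 was at 0.0607 with quantile normalization and 0.00994 with median-of-ratios scaling, and for the diet in WT mice Mup2 was at 0.00443 with a pseudocount of 5. With single libraries left out, the knockout on chow gave -0.46 to 0.11 for Mup21, -0.14 to 0.0780 for Mup3, -0.37 to 0.00170 for Mup7 and -0.57 to 0.12 for Mup9. On MCD it gave -0.30 to 0.33 for Mup7, -0.51 to 0.10 for Mup20, -0.33 to 0.0180 for Mup1 and -0.12 to 0.34 for Mup2. The diet in WT mice gave -0.18 to 0.28 for Mup2, and the difference of the diet effects -0.10 to 0.52 for Mup7 and -0.0439 to 0.62 for Mup20. Over all genes, the knockout on chow called 17, and 10 with no filter, 11 with a mean of at least 5 FPKM and 4 with only the libraries compared. The knockout on MCD called 102 (37 higher, 65 lower), and 55 (25 higher, 30 lower) with median-of-ratios scaling and 19 with only the libraries compared. The diet called 7110 genes in WT and 6276 in KO mice, and 4448 and 4047 with a mean of at least 5 FPKM. The difference of the diet effects called 12, and 3 with a pseudocount of 0.1, 6 with median-of-ratios scaling and 7 without the variance trend. Single libraries left out gave 8 to 34, 27 to 173 and 0 to 60 for the knockout on chow, the knockout on MCD and the difference. Median-of-ratios scaling moved the median of all genes with the diet in WT mice from 0.11 to -0.00. The cause of these changes was not tested.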
